A study of Mus musculus with 6 samples.

Results

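The genes described here are 10 components of the ATP signalling that drives spontaneous activity in the cochlea before hearing begins: the ATP-gated channel subunits P2rx2, P2rx3, P2rx4 and P2rx7, the G protein-coupled receptors P2ry1 and P2ry2, the chloride channel Ano1, and the extracellular nucleotidases Entpd1, Entpd2 and Nt5e. They were taken from a list of symbols and not by a rule on their values. The list was chosen with earlier results of these data known. All 10 genes were found among the 55769 features in each library. RNA-seq of cochlear tissue was compared between mice lacking Plscr5, a member of the phospholipid scramblase family (genotype Plscr5-/-), and wild-type mice, all on postnatal day 3, with 3 libraries per genotype. The labels name no strain, do not describe the Plscr5 allele and do not say whether each library came from a separate animal, so p-values reflect the spread between libraries alone, which may be technical. The extraction text also mentions Pou4f3(Δ/+) mice, a line that no library lists. Values are in TPM, a length-corrected transcript abundance with the same total in every library, so levels of different genes can be compared but the sequencing depth is unknown. In every library, 8 of 8 hair cell markers and 10 of 10 supporting cell and ridge markers were above 0. The same held for every other marker list named below except that of osteoblasts, so it does not single out the tissue.

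Before the ear canal opens, inner supporting cells of Kölliker's organ, a transient epithelium beside the inner hair cells, release ATP through connexin hemichannels. The ATP and its product ADP act on P2Y receptors of the same cells, calcium is released from stores, and the calcium-activated chloride channel Ano1 opens. Chloride efflux is followed by potassium efflux, which depolarises nearby inner hair cells and makes spiral ganglion neurons fire in bursts. Ectonucleotidases end the signal by breaking ATP down to ADP and AMP, and Nt5e turns AMP into adenosine.

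None of the 10 genes passed the test for a genotype difference, and the threshold was an adjusted p of 0.05. In limma (Benjamini-Hochberg adjustment over the 17097 features that reached 1 TPM in 3 or more libraries) 0 of the 10 passed, against 0.0117% of all tested features. The lowest adjusted p among the 10 genes was 0.989. All 10 genes passed the filter on low values in libraries of both genotypes. On the log2(TPM + 1) scale, on which each fold change below is the knockout value less the wild-type value, 6 of the 10 differences were positive and 4 negative, with a median of 0.11. Over all tested features the median was -0.01, and 46.6% were positive. By unadjusted limma p under 0.05, 1 of the 10 genes (Entpd2) stood out, against 4% of all tested features. The same gene was the only 1 of the 10 whose groups did not overlap, a state shared by 9.33% of all tested features. Plscr5 itself lay between 3.69 and 5.01 TPM in knockout and between 9.27 and 14.53 TPM in wild-type libraries. The Plscr5 log2 fold change was -1.28 (SE 0.18), with groups that did not overlap and a knockout mean 35.9% of the wild-type mean. Its unadjusted limma p was 0.000119, but it was also short of the threshold (limma adjusted p = 0.29). A gene can thus differ by this much here and still not pass.

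The 10 genes covered a wide span of levels. Ano1 was the most abundant at 69.1 ± 8.5 TPM (SD over the 6 libraries), and its lowest library was above the highest library of every other gene of the list. P2rx4 followed at 33.9 ± 4.3 TPM, P2rx3 at 32.5 ± 13.4 TPM and P2rx2 at 30.9 ± 2.9 TPM, and the ranges of these 3 neighbours overlapped, so their order was not resolved. P2rx7 at 20.1 ± 4.2 TPM and P2ry1 at 19.0 ± 2.4 TPM also overlapped each other. They lay below P2rx2 and above Entpd2 in 6 of 6 libraries. The lower end held Entpd2 at 9.66 ± 1.65 TPM, P2ry2 at 8.71 ± 1.73 TPM, Entpd1 at 8.14 ± 5.15 TPM and Nt5e at 5.95 ± 0.72 TPM (SD over the 6 libraries), again with overlapping ranges between neighbours. The plot of TPM by library shows these levels for each gene.

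**Figure D1:**
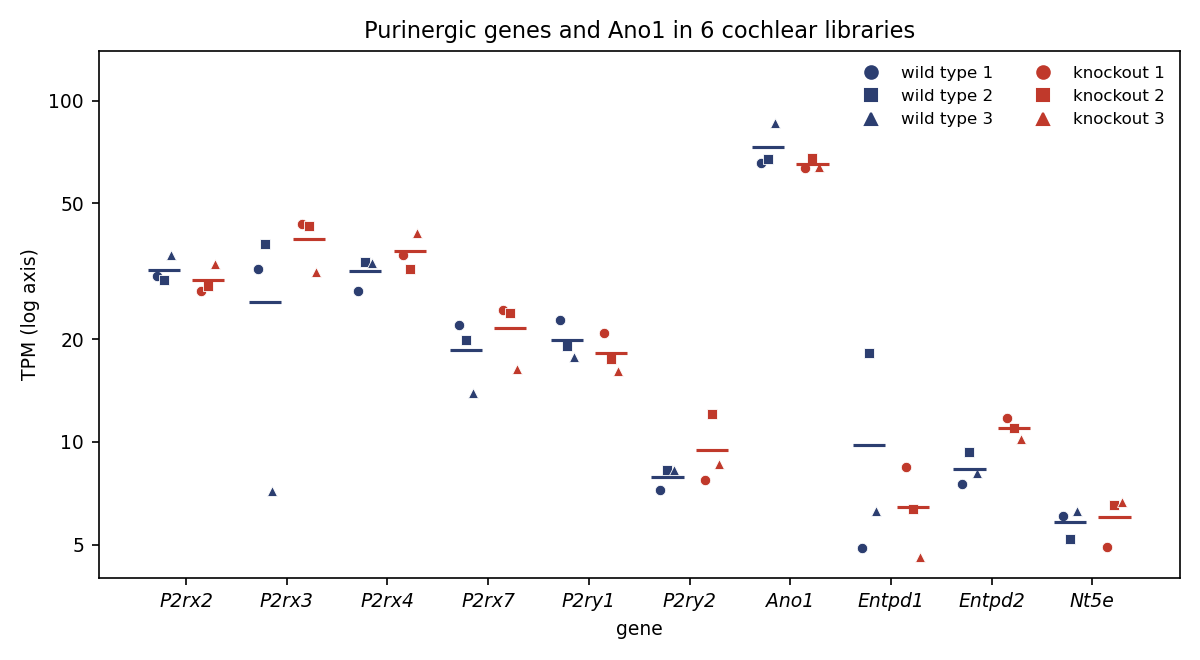
TPM of the 10 genes (horizontal axis) in each of 6 libraries on a log axis; points are single libraries, with colour for genotype and shape for replicate number, and horizontal lines are means of 3 libraries. Ano1 lies between 63.40 and 86.17 TPM, above the others, and wild type replicate 3 has 7.17 TPM of P2rx3 and wild type replicate 2 has 18.28 TPM of Entpd1, both apart from the other libraries.

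Ano1 encodes the calcium-activated chloride channel of the inner supporting cells. Its level was 63.40, 67.84 and 64.03 TPM in knockout replicates 1 to 3 and 65.82, 67.55 and 86.17 TPM in wild type replicates 1 to 3. The genotypes overlapped, 5 of the 6 libraries lay within a few TPM of each other, and wild type replicate 3 alone was high. The means were 65.1 ± 2.4 TPM in knockout libraries and 73.2 ± 11.3 TPM in wild-type libraries (SD, n = 3), with a log2 fold change of -0.16 (SE 0.11, 95% interval -0.41 to 0.10). Without wild type replicate 3 the log2 fold change of Ano1 was -0.03. The marker genes of supporting cells and the greater epithelial ridge, the region that holds Kölliker's organ, lay in the same direction. All 10 of those markers had negative log2 fold changes, with a median of -0.19 and 0 past the threshold in limma, and their summed level ran from 7531 to 7772 TPM in the knockout and from 8222 to 9656 TPM in the wild type, highest in wild type replicate 3. Set against that sum, Ano1 was 0.849 ± 0.029% in the knockout and 0.829 ± 0.061% in the wild type (two-sided exact permutation p = 0.6). In whole-tissue RNA scaled to the same total, the number of cells of a type, the RNA per cell and the share of other cells cannot be told apart.

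P2ry1, a Gq-coupled receptor for ADP, is a main trigger of calcium release in the inner supporting cells. It stood at 20.91, 17.51 and 16.12 TPM in knockout libraries and at 22.70, 19.14 and 17.69 TPM in wild-type libraries, replicates 1 to 3 in order. The ranges overlapped over most of their length. The log2 fold change of P2ry1 was -0.12 (SE 0.13, 95% interval -0.43 to 0.19), and it stayed between -0.22 and -0.02 when single libraries were left out. As a share of the summed supporting cell and ridge markers, P2ry1 was 0.237 ± 0.036% in the knockout and 0.227 ± 0.042% in the wild type (two-sided exact permutation p = 0.8). The antisense gene Gm37035, which shares exonic bases with P2ry1, was listed at 0.65 TPM or less in all libraries.

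P2ry2, the Gq-coupled receptor for ATP and UTP, was the lower of the pair. Its values were 7.76, 12.09 and 8.64 TPM in knockout libraries and 7.22, 8.26 and 8.28 TPM in wild-type libraries. Knockout replicate 2 was high, and the other 5 libraries fell between 7.22 and 8.64 TPM. P2ry2 had a log2 fold change of 0.22 (SE 0.17), which became 0.05 without knockout replicate 2. Of the summed TPM of 8 P2Y receptor genes, which was 36.2 ± 2.2 in the knockout and 36.4 ± 1.7 in the wild type, P2ry1 made up 45.4 to 60.4% and P2ry2 19.2 to 31.4% in single libraries. The 2 receptors were thus the most abundant of the P2Y family in these cochleae in every library.

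P2rx3, an ATP-gated channel subunit of sensory neurons, was the most variable of the 4 listed P2X genes. It stood at 43.55, 42.84 and 31.55 TPM in knockout libraries and at 32.05, 37.93 and 7.17 TPM in wild-type libraries. Wild type replicate 3 lay far below every other library, and among the other 5 the genotypes overlapped. The means were 39.3 ± 6.7 and 25.7 ± 16.3 TPM (SD, n = 3), and the log2 fold change was 0.87 (SE 0.64, 95% interval -0.78 to 2.51). Without wild type replicate 3 the log2 fold change of P2rx3 was 0.15. Exons of P2rx3 overlap those of Ssrp1, on the opposite strand, over 51 of 2789 bases in GENCODE M21, and the use of strand is not stated. Ssrp1 was even across the libraries, between 106 and 122 TPM. The spread of P2rx3 within genotypes exceeded that of 98.5% of all tested features.

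The neuronal and glial markers were low in the same library. The summed level of 8 neuronal markers was 810, 757 and 598 TPM in knockout libraries and 495, 635 and 187 TPM in wild-type libraries, and 8 of 8 markers were lowest in wild type replicate 3. Relative to this sum, P2rx3 was 5.37, 5.66 and 5.28% in the knockout and 6.47, 5.97 and 3.82% in the wild type. The group means of that ratio were 5.44 ± 0.20 and 5.42 ± 1.41% (SD, n = 3; two-sided exact permutation p = 1). In absolute TPM P2rx3 was higher on average in the knockout, whereas per unit of neuronal marker the means were close. That closeness rested on wild type replicate 3, which was still the lowest. The other wild-type libraries lay above every knockout library in this ratio. For Schwann and satellite glia the 8 summed markers ranged from 1465 to 2255 TPM in the knockout and from 514 to 1449 TPM in the wild type, and 7 of 8 were lowest in wild type replicate 3. All markers of both lists were above 0 in every library, and 0 passed the threshold in limma.

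**Figure D2:**
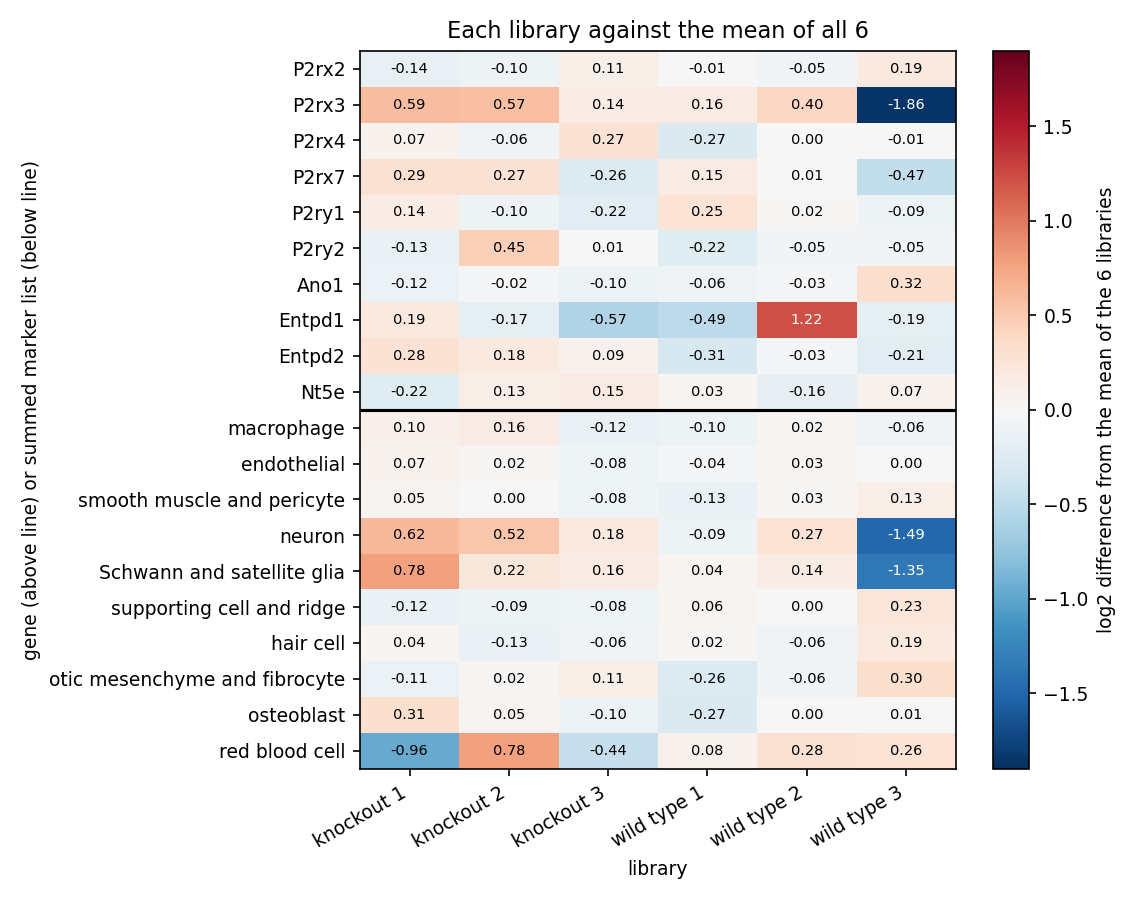
Log2 difference of each library (columns) from the mean of the 6 libraries, for log2(TPM + 1) of the 10 genes (rows above the line) and for log2 of the summed TPM of each marker list (rows below it). In wild type replicate 3, P2rx3 is at -1.86, the neuronal sum at -1.49 and the Schwann and satellite glia sum at -1.35, while Entpd1 is at 1.22 in wild type replicate 2, where the macrophage sum is at 0.02 and the endothelial sum at 0.03.

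P2rx2, which forms channels alone or together with P2rx3 and is found in hair cells and spiral ganglion neurons, did not share the low value. Its levels were 27.78, 28.56 and 33.21 TPM in knockout libraries and 30.57, 29.74 and 35.23 TPM in wild-type libraries. Replicate 3 was the highest library in each genotype, and the groups overlapped. For P2rx2 the log2 fold change was -0.09 (SE 0.11, 95% interval -0.34 to 0.16). The ratio of P2rx3 to P2rx2 was therefore 0.20 in wild type replicate 3 and lay between 0.95 and 1.57 in the other 5 libraries. As a share of 8 summed hair cell markers, P2rx2 was 14.7 ± 1.8% in the knockout and 14.6 ± 0.2% in the wild type (SD, n = 3; two-sided exact permutation p = 0.8).

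P2rx4, a widely expressed and strongly calcium-permeable subunit, stood at 35.41, 32.22 and 40.89 TPM in knockout libraries and at 27.72, 33.71 and 33.40 TPM in wild-type libraries. Its groups overlapped through knockout replicate 2. The log2 fold change of P2rx4 was 0.19 (SE 0.12, 95% interval -0.09 to 0.46), positive whichever library was left out, from 0.10 to 0.27. P2rx7, a subunit known from immune and glial cells that needs high ATP to open, had 24.32, 23.95 and 16.32 TPM in knockout libraries and 22.03, 19.84 and 13.93 TPM in wild-type libraries. Replicate 3 was the lowest library in each genotype. For P2rx7 the log2 fold change was 0.20 (SE 0.20), and it was 0.02 without wild type replicate 3. Wild type replicate 3 was also lowest for the sum of the glial markers given above. As a share of those markers P2rx7 was 1.25 ± 0.27% in the knockout and 1.91 ± 0.71% in the wild type (SD, n = 3; two-sided exact permutation p = 0.2). This share was 2.71% in wild type replicate 3 and between 1.08 and 1.63% in the other libraries.

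Summed over 7 P2X genes, the level was 137.8, 133.2 and 127.1 TPM in knockout libraries and 116.4, 126.4 and 95.8 TPM in wild-type libraries. Each knockout sum was above each wild-type sum, narrowly so for knockout replicate 3 and wild type replicate 2. P2rx3 contributed 24.8 to 32.2% of the sum in the 5 other libraries and 7.48% in wild type replicate 3. Without P2rx3 the sum was 93.4 ± 2.7 TPM in knockout libraries and 87.2 ± 2.4 TPM in wild-type libraries (SD, n = 3). Each knockout value (94.23, 90.33 and 95.51 TPM) was again above each wild-type value (84.39, 88.44 and 88.63 TPM). This sum was described after the single values were known and has no test. P2rx1 and P2rx5 each made up under 1% of the sum in every library.

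Among the nucleotidases, Entpd2 had the smallest unadjusted p. Entpd2, which mainly converts ATP to ADP and so supplies the ligand of P2ry1, stood at 11.77, 10.98 and 10.20 TPM in knockout libraries and at 7.52, 9.35 and 8.11 TPM in wild-type libraries. All 3 knockout libraries were above all 3 wild-type libraries, with the nearest pair less than 1 TPM apart. The means were 11.0 ± 0.8 and 8.33 ± 0.93 TPM (SD, n = 3), so that the knockout mean was 132% of the wild-type mean. The log2 fold change of Entpd2 was 0.36 (SE 0.13, 95% interval 0.07 to 0.65), with an unadjusted limma p of 0.0201 and an adjusted p of 0.989. A two-sided exact permutation test gave p = 0.1, the lowest value possible with 3 libraries per group. When single libraries were left out, the Entpd2 log2 fold change stayed between 0.30 and 0.44, and under all 14 alternative settings its adjusted p remained at 0.663 or above. Groups not overlapping on the higher side were found for 4.6% of all tested features. Exons of Entpd2 overlap those of Npdc1 on the same strand over 612 of 2128 exonic bases in GENCODE M21, so reads there can be assigned to either gene. Npdc1 was more abundant, between 118.4 and 147 TPM, with a log2 fold change of 0.09 and overlapping groups. The glial marker sum was likewise higher in each knockout library than in each wild-type library, narrowly so for knockout replicate 3 (1465 TPM) and wild type replicate 2 (1449 TPM). As a share of that sum, Entpd2 was 0.522, 0.720 and 0.696% in knockout libraries and 0.557, 0.645 and 1.58% in wild-type libraries. The groups of this ratio overlapped. Its means were 0.646 ± 0.108% in the knockout and 0.927 ± 0.566% in the wild type (SD, n = 3; two-sided exact permutation p = 0.8). The higher wild-type mean rested on wild type replicate 3, where the glial sum was lowest at 514 TPM. Whether glial content bears on the Entpd2 level was not tested.

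Entpd1, which breaks ATP and ADP down to AMP and is typical of endothelium and macrophages, differed most through a single library. Its values were 8.44, 6.37 and 4.59 TPM in knockout libraries and 4.89, 18.28 and 6.27 TPM in wild-type libraries. Wild type replicate 2 was more than double any other library, and the remaining 5 values of the 2 genotypes were interleaved. The log2 fold change of Entpd1 was -0.36 (SE 0.46, 95% interval -1.48 to 0.75), and it was 0.16 without wild type replicate 2. Marker sums of the 2 cell types in wild type replicate 2 lay within the range of the other libraries. Macrophage markers summed to 128 TPM there, against 116 to 141 TPM in the other libraries. Endothelial markers summed to 266 TPM, against 246 to 272 TPM. Both sums were the highest among the wild-type libraries, and the cause of the high Entpd1 value was not tested. The processed pseudogene Gm8783, which lies within Entpd1 but shares 0 exonic bases with it, stood at 9.78 TPM in the same library and between 5.81 and 9.51 TPM in the others.

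Nt5e, the enzyme that converts AMP to adenosine, had the lowest mean of the 10 genes, but Entpd1 was above it in only 2 of 6 libraries, so the order of these genes was not resolved. It stood at 4.92, 6.54 and 6.67 TPM in knockout libraries and at 6.08, 5.19 and 6.27 TPM in wild-type libraries, with overlapping groups and no library apart. Nt5e had a log2 fold change of 0.03 (SE 0.16, 95% interval -0.32 to 0.39), and its sign depended on which library was left out. As a share of 6 summed markers of otic mesenchyme and fibrocytes, Nt5e was 0.452 ± 0.046% in the knockout and 0.449 ± 0.089% in the wild type (SD, n = 3; two-sided exact permutation p = 1).

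**Figure D3:**
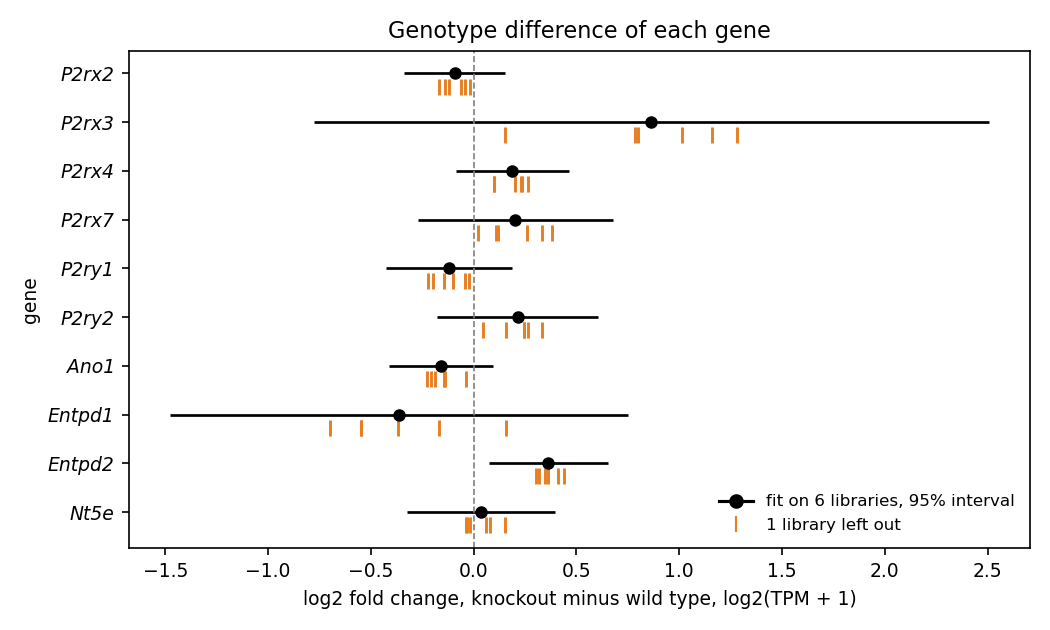
Log2 fold change of each gene (vertical axis) (knockout minus wild type, log2(TPM + 1) scale), with the 95% interval of the limma fit (black) and the values when each of 6 libraries was left out (orange ticks). The interval of Entpd2, from 0.07 to 0.65, is the only one of the 10 that leaves out 0 before adjustment, and the tick of P2rx3 at 0.15 and that of Entpd1 at 0.16 are the fits without wild type replicate 3 and without wild type replicate 2.

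The precision of the comparison differed among the genes. On the scale of TPM + 1, the 95% intervals allowed a knockout level between 0.753 and 1.07 times the wild-type level for Ano1, between 0.743 and 1.14 times for P2ry1, between 0.792 and 1.11 times for P2rx2 and between 0.941 and 1.38 times for P2rx4. For P2rx3 the interval reached from 0.584 to 5.68 times and for Entpd1 from 0.359 to 1.68 times, so that changes of several fold in P2rx3 could not be told from none.

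The wider pathway was followed through 51 other genes of ATP and adenosine signalling, of which 41 passed the filter on low values. In limma 0 of the 41 passed the threshold in either direction, against 0.0117% of all tested features. An unadjusted p under 0.05 was found for 1 of the 41 (Slc12a2), against 4% of all tested features. Log2 fold changes were positive for 18 and negative for 23, with a median of -0.01, the same to 2 decimals as that of all tested features. The groups did not overlap for 7 of the 41, 2 higher and 5 lower in the knockout, where all tested features gave 4.6% on the higher and 4.74% on the lower side. The 10 genes left out reached at most 1.04 TPM in any library, and 1 of them, the receptor gene P2ry10, was listed at 0 in all 6.

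Upstream of the receptors, 4 of 6 listed genes of ATP release were tested. Gjb2, the connexin 26 gene of the supporting cells, was the most abundant gene of this list. It stood at 233.91, 228.30 and 238.66 TPM in knockout libraries and at 249.15, 243.44 and 295.40 TPM in wild-type libraries. All knockout values of Gjb2 were below all wild-type values, with wild type replicate 3 the highest (log2 fold change -0.16, SE 0.08, limma adjusted p = 0.989). Against the sum of the supporting cell and ridge markers, Gjb2 was 3.05 ± 0.08% in the knockout and 2.98 ± 0.07% in the wild type (SD, n = 3; two-sided exact permutation p = 0.2), with overlapping values. The pannexin gene Panx1 had a log2 fold change of -0.15 and overlapping groups. Slc17a9, the vesicular nucleotide transporter, was among the genes left out, with values from 0.33 to 1.04 TPM.

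Downstream of the receptors, 9 of 9 genes of Gq signalling and calcium release were tested, 4 with positive and 5 with negative log2 fold changes. The store calcium channels Itpr3 and Itpr2 had the smallest p-values of this list and opposite signs. Itpr3 stood at 15.9 ± 4.2 TPM in knockout libraries and 11.4 ± 2.9 TPM in wild-type libraries (log2 fold change 0.45, SE 0.22), and Itpr2 at 13.9 ± 2.1 and 17.2 ± 2.4 TPM (log2 fold change -0.29, SE 0.15). Both had overlapping groups and a limma adjusted p of 0.989. Itpr1, which had no difference of such a size (-0.07), was the most abundant of the 3 channel genes.

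Among genes of chloride loading and potassium clearance, Slc12a2 had the smallest p. It encodes the cotransporter NKCC1, which loads cells with the chloride that Ano1 lets out. Slc12a2 was at 110.82, 108.36 and 104.47 TPM in knockout libraries and at 131.62, 115.17 and 131.95 TPM in wild-type libraries, without overlap. In limma its log2 fold change was -0.22 (SE 0.08), with an unadjusted p of 0.0191 and an adjusted p of 0.989. Leaving out single libraries kept the Slc12a2 value between -0.29 and -0.19. As a share of the supporting cell and ridge marker sum, Slc12a2 was 1.41 ± 0.06% in the knockout and 1.44 ± 0.09% in the wild type (SD, n = 3; two-sided exact permutation p = 0.7). Fibrocytes and the stria vascularis also express this gene.

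Receptors for adenosine, the product of Nt5e, were low throughout. Adora1 stood at 3.05 ± 0.50 TPM in knockout libraries and 2.23 ± 0.29 TPM in wild-type libraries without overlap (SD, n = 3; log2 fold change 0.32), and Adora2a at 2.44 ± 0.50 and 3.72 ± 1.01 TPM with overlap (log2 fold change -0.45), neither past the threshold. Of the other P2 receptors, P2rx6 had a log2 fold change of 0.18, P2ry6 of -0.17 and P2ry14 of 0.27. Of 12 other enzymes, all tested, 6 were positive and 6 negative. Those with the smallest p were Enpp2, which encodes autotaxin (-0.15), and Entpd5 (-0.17). The nucleoside transporters Slc29a4 (0.13) and Slc29a1 (-0.02) completed the route, and Slc29a1 was abundant, at 184 ± 19 TPM in knockout libraries and 189 ± 35 TPM in wild-type libraries (SD, n = 3).

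**Figure D4:**
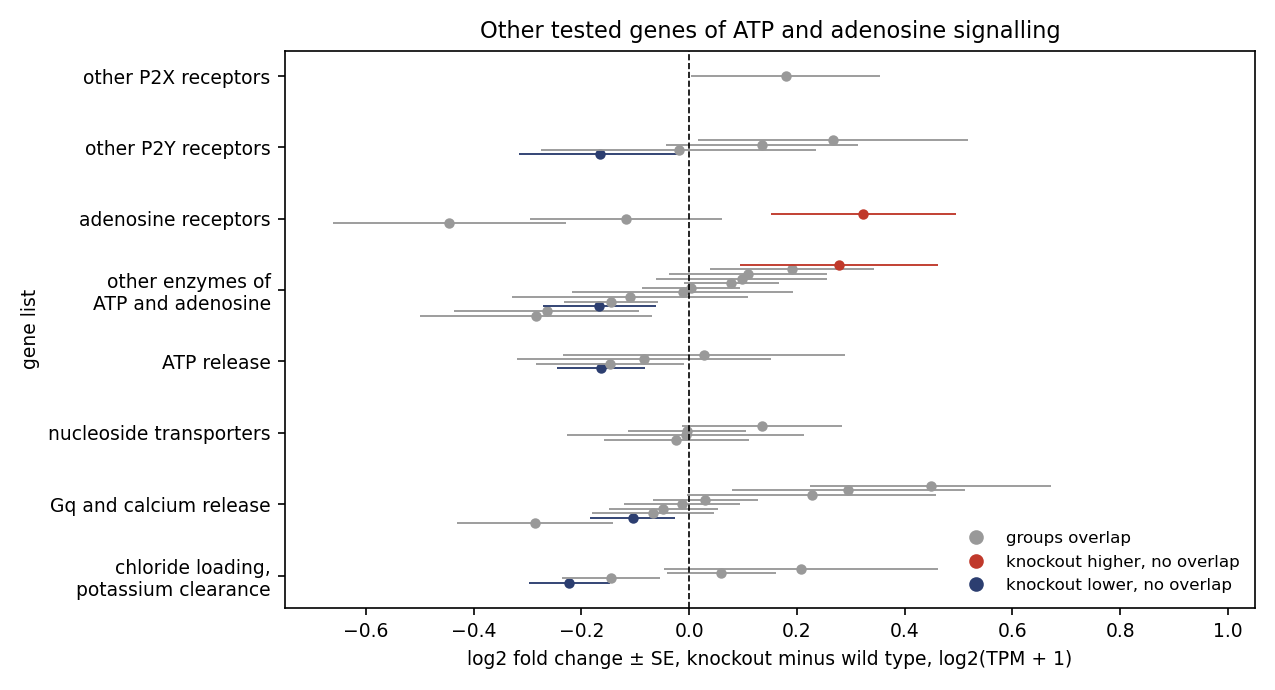
Log2 fold change ± SE (knockout minus wild type, log2(TPM + 1) scale) of the 41 tested genes of the wider pathway, grouped by list on the vertical axis; colour shows whether the 3 knockout and 3 wild-type values overlap. Points lie on both sides of 0 in all lists but that of the other P2X receptors, which holds 1 tested gene, and 7 genes have groups without overlap, 2 on the higher and 5 on the lower side.

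The genes whose profile over the 6 libraries was most like that of each listed gene were taken from 11906 tested protein-coding genes with a mean of at least 5 TPM. These correlations rest on 6 libraries that share composition and scaling, so high values are common, and they are given as a description. For P2rx3 the nearest were the neuronal intermediate filament gene Ina (Pearson r = 0.999, Spearman rho = 0.943) and Stmn3 (r = 0.998, rho = 0.886), and 242 genes had an r above 0.95. Without the 2 libraries farthest from the P2rx3 median, r was 0.982 for Ina and 0.960 for Stmn3. The genes nearest to Ano1 were Rgs16 (r = 0.993, rho = 0.829) and Tbcel (r = 0.989, rho = 0.771), which were likewise highest in wild type replicate 3. Without the 2 libraries farthest from the Ano1 median, r fell to 0.816 for Rgs16 and 0.675 for Tbcel, so that the likeness rested in part on those libraries. For P2ry1 the nearest were Cep126 (r = 0.999) and Ddit3 (r = 0.999), among 361 genes with an r above 0.95. The first in rank for the others were Tmem268 for P2rx2, Cln3 for P2rx4, Marcks for P2rx7, Trex1 for P2ry2, Kif15 for Entpd1, Col6a2 for Entpd2 and Rbm7 for Nt5e.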

How the data were processed

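The deposited files hold 1 value per gene and library in TPM, read as such from the values: the authors' columns are written with 2 decimals and each sums to 1000000. Genome build mm8 and DESeq2 are listed in the submitters' processing notes with no role given. No aligner, quantifier or annotation is named (not given in the sources used here), and no depth, counting interval or floor can be given. Symbols came from GENCODE M21 (GRCm38), which named 52135 of 55769 features. Because builds differ, no coordinates are printed. Features reaching 1 TPM in 3 or more libraries were kept, and log2(TPM + 1), that is a pseudocount of 1, was the response in limma 3.58.1, run in R 4.3.3 (intensity trend, robust moderation, no block, threshold 0.05 after Benjamini-Hochberg adjustment). The fit was tested on simulated data. Alternatives were other pseudocounts, filters, scalings and variance settings, removal of haemoglobin and mitochondrial genes, a replicate block and each library left out in turn.

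Every gene of the list was named. From each pathway list up to 2 genes with the smallest p were named, and up to 2 genes most like each listed gene. A gene that this rule selected is not reported here. Itpr1, Slc17a9, P2rx1, P2rx5 and P2ry10, the overlapping genes and the ratios to marker sums or between genes were chosen after values were seen. The 10 genes, the pathway lists and the marker lists were chosen with earlier results of these data known. Marker lists covered macrophages, endothelium, smooth muscle and pericytes, neurons, Schwann and satellite glia, supporting cells and ridge, hair cells, otic mesenchyme, osteoblasts and red blood cells. Their median log2 fold changes were, in that order, 0.07, 0.04, -0.06, 0.87, 0.80, -0.19, -0.10, 0.005, 0.13 and -0.47. Bglap and Bglap2, among the 6 osteoblast markers, were listed at 0 in 1 or more libraries.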

Additional observations from a re-analysis of the deposited data

How the results depend on the processing

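At an unadjusted limma p under 0.05, the count of listed genes ran from 0 to 2 under the 14 alternatives. Of all tested features, 4% passed that limit in the main fit. The count of listed genes past the adjusted threshold was 0 in limma under all 14 alternatives, and the wider pathway also gave 0 throughout. Over all features the count was 2 (mt-Nd4l and ENSMUSG00002074928, both lower in the knockout). It became 0 with no filter on low values, 0 without variance trend and robust moderation, 1 with TMM factors and 1 with haemoglobin and mitochondrial genes removed, and lay between 0 and 3 with a library left out. With the replicate block it was 0, and 2 of the 10 genes then had an unadjusted p under 0.05 (P2rx7, 0.0468, and Entpd2, 0.0239). The labels do not say whether a shared replicate number marks a litter or a batch. Deviations from the group means correlated between same-numbered libraries at 0.19, -0.05 and 0.24, and 4 of 6 libraries correlated best with their own number. Over all features, the count at an unadjusted limma p under 0.05 was 684 without the block and 1250 with it. Whether the numbers mark pairs was not tested. Of 140 checks of single genes, 136 kept direction and call and 4 changed sign, all when a library was left out: Entpd1 ran from -0.70 to 0.16 (without wild type replicate 2) and Nt5e from -0.0364 (also without that library) to 0.155. The cause was not tested. Depth limits cannot be given for TPM.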
